A study of Mus musculus with 16 samples.

Results

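The immunoglobulin and plasma cell genes described here are 7 genes listed by symbol, Igkc, Igha, Ighm, Jchain, Mzb1, Cd79a and Cd79b, out of 55359 gene IDs measured in mouse skin. The list was not chosen by measured values, although it was drawn up with earlier results of these data known. All 7 were matched to an ID, ENSMUSG00000076609.3 (Igkc), ENSMUSG00000095079.7 (Igha), ENSMUSG00000076617.10 (Ighm), ENSMUSG00000067149.7 (Jchain), ENSMUSG00000024353.6 (Mzb1), ENSMUSG00000003379.8 (Cd79a) and ENSMUSG00000040592.12 (Cd79b). Of these, 6 genes, all but Cd79a, had enough reads to enter the test across 17531 genes. Poly(A) RNA was sequenced from the dorsal skin, taken whole, of 8-week-old male mice, and the labels call every group's skin telogen, that is, with resting hair follicles. The 4 groups were KO skin after UVB, KO skin without UVB (control), WT skin after UVB and WT control skin, with 4 libraries in each. KO mice are labelled Tnfrsf1a/b KO, for the genes of both TNF receptors, and UVB stands for the treatment labelled 3xUVB. The sources used here do not give the UVB dose and timing, the form of the knockout alleles or the strain. Each library held 15644375 to 23200649 reads in genes. Markers of keratinocytes, the main cell of epidermis, summed to 9619 CPM or more in each library (CPM are counts scaled to library size). The WT control libraries went against the telogen label, with markers of the growing (anagen) follicle at 1231 to 3117 CPM in sum, against at most 330 CPM in any other library, and every result that rests on WT control skin carries this difference.

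An antibody is built from 2 kinds of chain, a heavy chain whose constant region sets the class (IgM, IgD, IgG, IgA or IgE) and a kappa or lambda light chain. B cells carry antibody on their surface, where it signals through the CD79 pair, and plasma cells derived from them secrete it in bulk. IgA and IgM are secreted as polymers joined by the J chain, which lets epithelia carry them to a surface through the polymeric immunoglobulin receptor. Skin holds few B and plasma cells, and IgA made there is part of the surface barrier. In whole skin, fewer cells of a type and less RNA per cell cannot be told apart.

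Reads over both targeted genes fell in KO skin but were not lost. Tnfrsf1a was at 95.8 ± 6.78 CPM in KO UVB and 85.9 ± 5.42 in KO control skin, against 151 ± 8.87 in WT UVB and 143 ± 6.67 in WT control skin (SD, n = 4 each), with a log2 fold change for KO against WT of -0.74 without UVB (adjusted p = 5.43e-05) and -0.66 after it (adjusted p = 0.000152). Tnfrsf1b was at 20.1 ± 5.54 and 20.8 ± 4.17 CPM in KO UVB and KO control skin, against 40.9 ± 7.99 and 57.8 ± 13.4 CPM in WT UVB and WT control skin (-1.47 without UVB, adjusted p = 0.00206, and -1.02 after it, adjusted p = 0.0315). No KO library overlapped with a WT library for either gene.

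Promoter sequence was available for 2 of the 7 genes, Jchain and Cd79a, one a secretory gene with high counts in WT control skin and the other a receptor gene near the detection limit. They are shown to let the letters before each start site be read beside the values. Each run is the 250 bases before the annotated start, 5′ to 3′ along the gene's own strand, from RefSeq on GRCm38.p6, a different build from that of the counts. Jchain lies on the minus strand (chr5:88527898-88528147) and Cd79a on the plus strand (chr7:24897247-24897496). Capitals mark the only match found, in Cd79a.
Jchain: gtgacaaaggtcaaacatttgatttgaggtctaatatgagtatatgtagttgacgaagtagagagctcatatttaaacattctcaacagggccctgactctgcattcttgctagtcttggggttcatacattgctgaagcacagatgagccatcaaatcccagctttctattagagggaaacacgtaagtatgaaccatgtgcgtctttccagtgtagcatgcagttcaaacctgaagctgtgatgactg
Cd79a: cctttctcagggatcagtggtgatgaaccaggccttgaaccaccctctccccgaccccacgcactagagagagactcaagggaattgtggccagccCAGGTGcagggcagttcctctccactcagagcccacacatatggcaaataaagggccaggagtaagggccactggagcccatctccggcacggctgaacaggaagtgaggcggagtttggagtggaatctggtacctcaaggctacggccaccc

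7 motifs were searched on both strands of those bases. The E-box CAGGTG, bound by the B cell regulator E2A, matched Cd79a 154 bases before the start, and 17.2% of 32851 promoters of the same length hold it. Neither promoter held the octamer ATGCAAAT (found in 1.60% of promoters), its overlapping 7-letter core TGCAAAT (3.56%), the full palindrome CCCNNGGG searched for EBF (11.8%) or TATAAA (12.4%). EBF sites that depart from that palindrome were not searched. The Ets-IRF composite motif (2.30%) and the XBP1 core ACGTGG (6.91%) were not found in them either. A match is a run of letters and no shown binding site, and a missing match says nothing of the factor.

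Igha, Igkc and Jchain, called the secretory genes here for brevity, were highest in WT control skin. Igha, the constant region of IgA, was at 1.94, 3.02, 1.29 and 1.55 CPM in KO UVB libraries 1 to 4 and at 1.02, 4.15, 7.08 and 4.05 CPM in KO control libraries. It was at 7.71, 2.47, 2.37 and 4.56 CPM in WT UVB libraries and at 25.7, 16.2, 14.0 and 29.3 CPM in WT control libraries. Every WT control library lay above the other 12, whose ranges overlapped. CPM carry no length correction, so levels are compared between groups and never between genes.

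Igkc, the kappa light-chain constant region, had the same top group. It was at 0.647, 1.20, 0.415 and 1.55 CPM in KO UVB libraries and at 0.292, 2.46, 3.57 and 3.49 CPM in KO control libraries. WT UVB libraries had 4.71, 1.61, 0.582 and 2.61 CPM, and WT control libraries had 16.7, 13.2, 9.31 and 19.4 CPM. Jchain, the joining chain of polymeric IgA and IgM, was at 0.348, 0.913, 0.185 and 0.546 CPM in KO UVB libraries and at 0.146, 1.14, 1.86 and 1.72 CPM in KO control libraries. It was at 3.32, 0.901, 0.485 and 2.28 CPM in WT UVB libraries and at 11.7, 7.44, 5.16 and 10.7 CPM in WT control libraries. For both genes, as for Igha, KO control library 1 was the lowest of its group and WT UVB library 1 the highest of its group.

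Ighm, the IgM heavy chain, was spread otherwise. Its levels were 49.3, 62.2, 90.8 and 136 CPM in KO UVB skin and 106, 78.7, 93.4 and 101 CPM in KO control skin. WT UVB skin had 78.0, 46.8, 45.2 and 67.4 CPM, and WT control skin had 104, 99.2, 62.9 and 61.6 CPM. Every KO control library lay above every WT UVB library, the other pairs of groups overlapped, and the group means, 84.7 ± 38.6, 94.8 ± 11.96, 59.4 ± 16.02 and 81.8 ± 22.7 CPM in that order (SD, n = 4 each), differed by at most 1.60 times. KO UVB libraries 3 and 4 had more Ighm than any WT UVB library, while KO UVB libraries 1 and 2 did not.

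Mzb1, a chaperone of the endoplasmic reticulum in B and plasma cells, had 1 to 13 counts in every library. It averaged 0.181 ± 0.0987 CPM in KO UVB, 0.479 ± 0.218 in KO control, 0.214 ± 0.140 in WT UVB and 0.552 ± 0.140 in WT control skin (SD, n = 4 each). Both UVB groups had the lower means. Cd79b, a chain of the B cell receptor's signalling pair, was at 0.348, 1.14, 1.62 and 1.82 CPM in KO UVB libraries and at 1.75, 1.31, 1.17 and 1.72 CPM in KO control libraries. WT UVB libraries had 1.06, 0.806, 1.02 and 0.556 CPM, below all 4 WT control libraries at 2.68, 2.23, 1.49 and 1.79 CPM. Cd79a, its partner chain, had 1, 1, 0 and 3 counts in KO UVB, 3, 7, 3 and 5 in KO control, 4, 0, 1 and 2 in WT UVB and 3, 3, 5 and 2 in WT control libraries. At this depth 3 counts are worth 0.127 to 0.186 CPM, so most Cd79a values lie near that limit, and the gene was not tested.

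**Figure D1:**
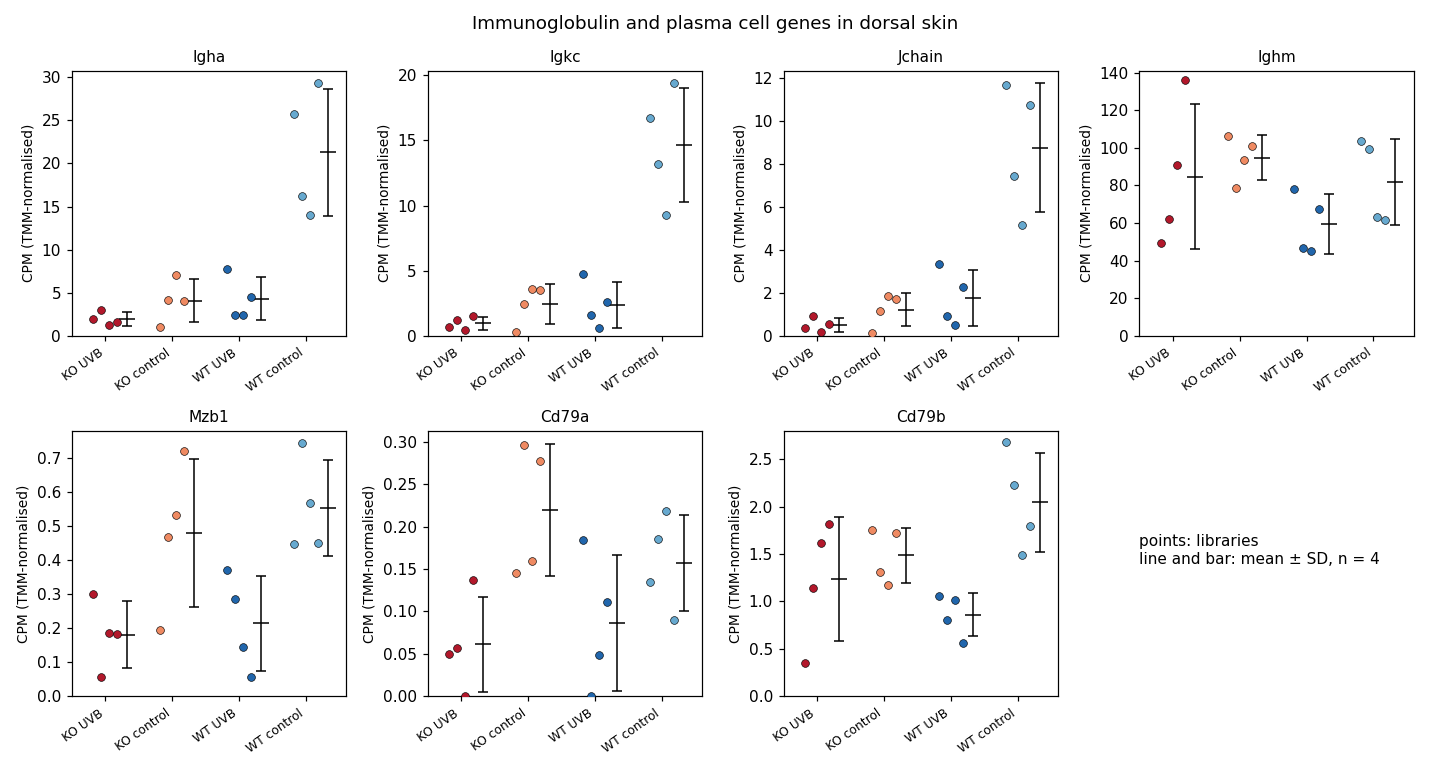
Level of each of the 7 genes in CPM (linear axis from 0) in every library, with the group mean and SD (n = 4) beside the points; the groups run from KO UVB to WT control. Igha, Igkc and Jchain stand apart in WT control skin, at 14.0 to 29.3 CPM for Igha, while for Ighm KO control and WT UVB skin are the only pair of groups that does not overlap.

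The order of the group means was WT control, WT UVB, KO control, KO UVB for Igha and Jchain, and WT control, KO control, WT UVB, KO UVB for Igkc and Mzb1. The first differed from the last by 10.9 times for Igha, 15.4 times for Igkc, 17.6 times for Jchain and 3.05 times for Mzb1. Between WT UVB and KO control skin, the middle groups, the libraries of these 4 genes overlapped. Cd79b ran from WT control down to WT UVB, with a ratio of 2.38 between them.

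The counts of the secretory genes kept close ratios where they were abundant. In WT control skin there were 0.650 to 0.813 Igkc counts and 0.365 to 0.458 Jchain counts for each Igha count. Over all 16 libraries these ratios ran from 0.245 to 1 for Igkc and from 0.143 to 0.500 for Jchain, with as few as 6 Igkc and 3 Jchain counts in a library. Igha counts per Ighm count were 0.0114 to 0.0486 in KO UVB, 0.00962 to 0.0758 in KO control, 0.0525 to 0.0988 in WT UVB and 0.164 to 0.476 in WT control skin. WT control skin was thus apart from the other groups in this ratio too. Igkc counts per Ighm count ran from 0.00275 to 0.315 over all 16 libraries, without correction for gene length.

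The first comparison asked how UVB changed these genes in WT skin. Of the 6 tested genes, 4 fell and 0 rose at an adjusted p under 0.05 in edgeR's quasi-likelihood test, beside 8.6% of all 17531 genes called lower and 18.8% called in either direction. Igha averaged 4.28 ± 2.50 CPM after UVB and 21.3 ± 7.38 CPM in control skin (SD, n = 4 each), a log2 fold change of -2.32 ± 0.47 (SE, adjusted p = 0.00337). Igkc, at 2.38 ± 1.76 CPM after UVB and 14.7 ± 4.38 CPM in control skin, had a log2 fold change of -2.62 ± 0.58 (adjusted p = 0.00591). Jchain averaged 1.75 ± 1.30 CPM after UVB and 8.74 ± 3.00 CPM in control skin (-2.32 ± 0.56, adjusted p = 0.0101).

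Of Cd79b, Mzb1 and Ighm, Cd79b passed the test in WT skin, at 0.860 ± 0.232 CPM after UVB and 2.05 ± 0.522 CPM in control skin (-1.23 ± 0.37, adjusted p = 0.0286). That call was lost when WT control library 1 or 2, or any of WT UVB libraries 2, 3 and 4, was left out, with an adjusted p of up to 0.0983. Mzb1 had a log2 fold change of -1.29 ± 0.48 (adjusted p = 0.0723), and it passed in limma voom (adjusted p = 0.0169) and, in edgeR, without WT UVB library 1 (adjusted p = 0.0483). Ighm gave -0.46 ± 0.28 (adjusted p = 0.262). For 5 of the 7 genes, Igkc, Jchain, Igha, Mzb1 and Cd79b, every UVB library lay below every control library, beside 13.1% of all genes wholly lower and 15.1% wholly higher. The median log2 fold change of the 6 genes was -1.80, against -0.03 over all genes tested, given as a description of the genes that passed the filter on low counts.

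In KO skin the same comparison gave 0 calls among the 6 genes, where 15.1% of all genes were called lower and 32.3% in either direction. At an unadjusted p under 0.05 there was 1, Mzb1, which limma voom also called, and DESeq2 called 0. The share of all genes at the unadjusted threshold was not counted. Igha averaged 1.95 ± 0.763 CPM after UVB and 4.08 ± 2.48 CPM in KO control skin (SD, n = 4 each), a log2 fold change of -1.07 ± 0.50 (adjusted p = 0.116 in edgeR). Igkc, at 0.952 ± 0.515 CPM after UVB and 2.45 ± 1.53 CPM in KO control skin, gave -1.35 ± 0.65 (adjusted p = 0.124). Jchain averaged 0.498 ± 0.314 CPM after UVB and 1.22 ± 0.780 CPM in KO control skin (-1.30 ± 0.70, adjusted p = 0.168). All 3 genes overlapped between these groups, as did Ighm, Mzb1 and Cd79b, so that Cd79a, at 0 to 3 counts after UVB and 3 to 7 in control libraries, was the 1 member without overlap in CPM. Over all genes 11.5% were wholly lower after UVB and 13.6% wholly higher.

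Leaving out KO control library 1 changed these calls. Without it, Igha (-1.38, adjusted p = 0.02502), Igkc (-1.72, adjusted p = 0.0260) and Mzb1 (-1.59, adjusted p = 0.0210) were called lower in KO UVB skin, and Jchain stood at an adjusted p of 0.0505. Among all genes, 4280 to 6350 were called for UVB in KO skin over the 8 runs that each left out 1 library. With all libraries Mzb1 was at -1.34 ± 0.50 (adjusted p = 0.0526), and it was also called without KO UVB library 1 (-1.66, adjusted p = 0.0405). Since Mzb1 passed the filter through control libraries, its calls here are a description. Cd79b gave -0.26 ± 0.36 (adjusted p = 0.612) and Ighm -0.16 ± 0.28 (adjusted p = 0.689). Both had a positive value, 0.046 for Cd79b and 0.026 for Ighm, without KO UVB library 1. The median of the 6 genes was -1.18, against -0.02 over all genes, again as a description of the genes that passed the filter.

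The third comparison set KO against WT skin without UVB. The 3 secretory genes Igha, Igkc and Jchain fell, 3 of 6 tested, in a comparison in which 1.28% of all genes were called lower, 0.416% higher and 1.69% in either direction. Igha averaged 4.08 ± 2.48 CPM in KO control and 21.3 ± 7.38 CPM in WT control skin (SD, n = 4 each), a log2 fold change of -2.39 ± 0.47 (adjusted p = 0.0155 in edgeR). Igkc, with 2.45 ± 1.53 CPM in KO control and 14.7 ± 4.38 CPM in WT control skin, gave -2.59 ± 0.58 (adjusted p = 0.0315). Jchain averaged 1.22 ± 0.780 CPM in KO control and 8.74 ± 3.00 CPM in WT control skin (-2.85 ± 0.59, adjusted p = 0.0188). For each of the 3, every KO control library lay below every WT control library, beside 4.63% of all genes wholly lower and 3.05% wholly higher.

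These calls sat close to the threshold. Without KO control library 2 none of the 3 was called, at adjusted p-values of 0.0502 for Igha, 0.0830 for Igkc and 0.0616 for Jchain. Without WT control library 1 or 4, or KO control library 4, 1 call was left, and without WT control library 2 or KO control library 3 there were 2. The Igkc call was lost in all 6 of these settings (adjusted p up to 0.0968), the Jchain call in 3 of them (up to 0.0653) and the Igha call in 2 (up to 0.0535). Among all genes, 161 to 288 were called over the 8 runs that each left out 1 library. With every gene of at least 1 read tested, 33949 in all, the adjusted p was 0.0619 for Igha, 0.121 for Igkc and 0.0695 for Jchain, so that 0 were called, while each log2 fold change moved by less than its SE. The other 3 tested genes did not pass, with -0.46 ± 0.35 for Cd79b (adjusted p = 0.740), -0.20 ± 0.43 for Mzb1 (adjusted p = 0.940) and 0.21 ± 0.28 for Ighm (adjusted p = 0.878). The median of the 6 genes was -1.42, against 0.00 over all genes. The WT control libraries serve both this comparison and that of UVB in WT skin, so the 2 sets of values are not independent.

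After UVB, KO against WT skin gave 0 calls of 6 in edgeR, DESeq2 and limma voom alike, beside 0.856% of all genes in edgeR, 0.496% higher and 0.359% lower. At an unadjusted p under 0.05 there were 2, Jchain and Igha, a number that cannot be set against all genes, whose share at that threshold was not counted. Jchain averaged 0.498 ± 0.314 CPM in KO UVB and 1.75 ± 1.30 CPM in WT UVB skin (SD, n = 4 each), a log2 fold change of -1.83 ± 0.68 (adjusted p = 0.196). Igha was at -1.15 ± 0.50 (adjusted p = 0.276) and Igkc at -1.32 ± 0.65 (adjusted p = 0.331), and the libraries of both groups overlapped for all 3. They overlapped for the other 4 genes too, while 4.27% of all genes were wholly higher and 3.89% wholly lower. Ighm gave 0.51 ± 0.28 (adjusted p = 0.382), Cd79b 0.52 ± 0.38 (adjusted p = 0.521) and Mzb1 -0.25 ± 0.56 (adjusted p = 0.862). The median was -0.70, against 0.01 over all genes.

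**Figure D2:**
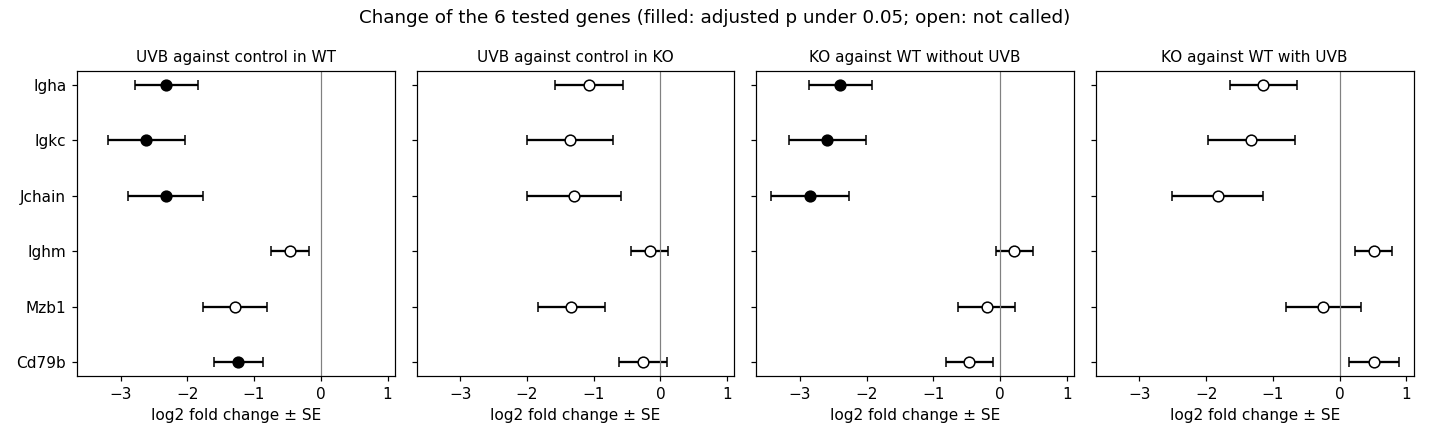
Log2 fold change with its SE for the 6 tested genes in 4 comparisons, filled where the adjusted p was under 0.05. Igha, Igkc and Jchain are filled on the negative side for UVB against control in WT and for KO against WT without UVB, and Cd79b for UVB in WT alone.

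Whether the UVB change differed between the genotypes was tested as an interaction, the log2 fold change for UVB in KO skin less the one in WT skin. None of the 6 genes was called in edgeR, DESeq2 or limma voom, 0 had an unadjusted p under 0.05 in edgeR, and 0.0228% of all genes were called, 0.0171% higher and 0.0057% lower. Igha had an interaction of 1.25 ± 0.68 on the log2 scale (95% interval -0.09 to 2.58, adjusted p = 0.458) and Igkc one of 1.27 ± 0.87 (interval -0.44 to 2.97, adjusted p = 0.563). Jchain gave 1.02 ± 0.91 (adjusted p = 0.671), Cd79b 0.97 ± 0.51 (adjusted p = 0.443), Ighm 0.30 ± 0.39 (adjusted p = 0.785) and Mzb1 -0.05 ± 0.65 (adjusted p = 0.985). A fall in WT skin alone was therefore not shown, since the intervals hold both 0 and more than 2 log2 units for Igha and Igkc.

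The share of IgA in the heavy-chain reads was highest in WT control skin. Igha made up 3.70, 4.51, 1.34 and 1.08% of heavy-chain constant-region counts in KO UVB libraries and 0.903, 4.56, 6.47 and 3.59% in KO control libraries. WT UVB libraries had 8.64, 4.78, 4.82 and 6.06%, and WT control libraries had 19.0, 13.4, 17.2 and 30.5%. The Wilson 95% interval of a single library was 17.7 to 20.5% at 19.0% of 3023 counts and 0.591 to 1.38% at 0.903% of 2326 counts, and these intervals cover counting error only. These are shares of reads, without correction for the length of each gene.

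After UVB in WT skin the Igha share was 6.07 ± 1.81% against 20.03 ± 7.35% in control skin (SD, n = 4 each), a difference of -14.0 percentage points (2-sided exact permutation p = 0.0286, adjusted p = 0.0381 over 4 comparisons). KO control skin, at 3.88 ± 2.32%, differed from WT control skin by -16.1 points (exact permutation p = 0.0286, adjusted p = 0.0381). KO UVB skin, at 2.66 ± 1.71%, and WT UVB skin, at 6.07 ± 1.81%, differed by -3.42 points, again without overlap (exact permutation p = 0.0286, adjusted p = 0.0381). Igha in CPM overlapped between these groups. The lowest KO UVB shares, 1.34 and 1.08%, were in libraries 3 and 4, which had the most Ighm of that group, 90.8 and 136 CPM. In KO skin UVB and control differed by -1.22 points (exact permutation p = 0.543, adjusted p = 0.543). With 4 libraries against 4, a p of 0.0286 is the smallest this test can give, and without any 1 library it cannot pass.

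Ighg1, the constant region of IgG1, was highest in KO control skin. It had 0.747, 0.342, 1.29 and 1.82 CPM in KO UVB libraries and 3.06, 4.49, 5.17 and 2.55 CPM in KO control libraries. WT UVB libraries had 0.554, 0.664, 0.145 and 0.389 CPM, and WT control libraries had 0.268, 0.372, 1.40 and 1.25 CPM. Every KO control library lay above every WT control library and above every KO UVB library. Without UVB, Ighg1 was higher in KO than in WT skin by 2.18 ± 0.51 on the log2 scale (adjusted p = 0.0388 in edgeR), a call that ended without 7 of the 8 libraries in turn and reached an adjusted p of 0.123 over the alternatives. UVB in KO skin lowered it by a log2 fold change of -1.83 ± 0.49 (adjusted p = 0.0108), which stayed called in each alternative run (adjusted p up to 0.0363). In WT skin UVB gave -0.92 (adjusted p = 0.295), and KO against WT after UVB gave 1.27 ± 0.58 (adjusted p = 0.297).

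Of the 11 other immunoglobulin constant genes listed, 3 were tested, Ighg1, Ighd and Ighg2b, and those last 2 were called in none of the 5 comparisons by edgeR. Ighd, the IgD heavy chain, was at 1.85 ± 1.46 CPM in KO UVB, 3.05 ± 0.331 in KO control, 1.66 ± 0.565 in WT UVB and 3.09 ± 1.18 in WT control skin (SD, n = 4 each). Ighg2b averaged 0.159 ± 0.0399, 0.598 ± 0.902, 0.453 ± 0.402 and 0.839 ± 0.295 CPM in the same order. IgG genes together were 1.43 ± 0.463% of heavy-chain counts in KO UVB, 4.45 ± 1.16% in KO control, 1.48 ± 0.660% in WT UVB and 2.21 ± 1.02% in WT control skin. The Ighg genes resemble one another closely in sequence, so how reads were split among them is uncertain.

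**Figure D3:**
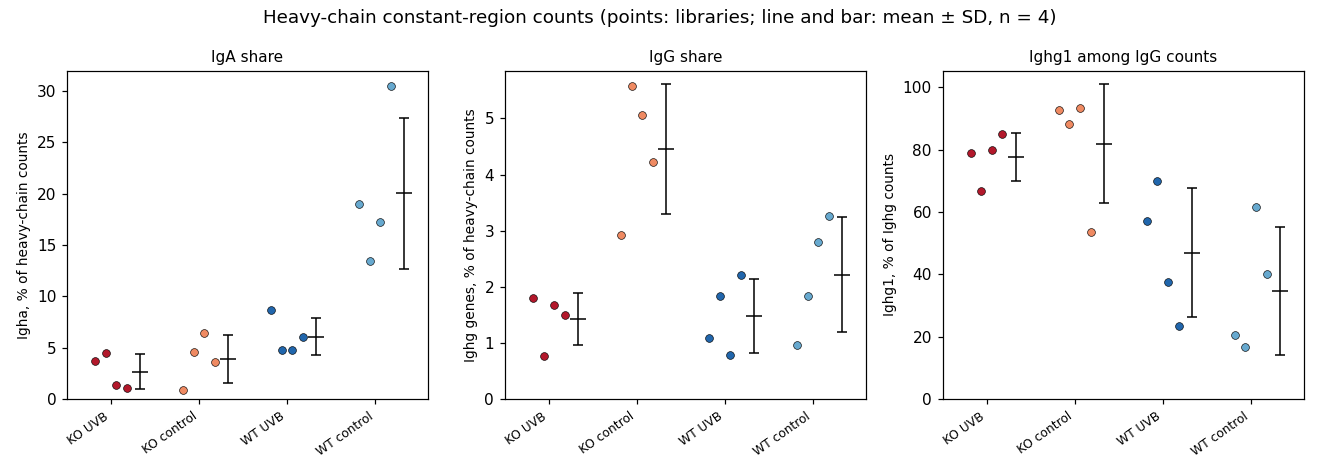
Share of heavy-chain constant-region counts that were Igha (left) and Ighg genes (middle), and the share of Ighg1 among Ighg counts (right), in percent on axes from 0, by library with mean and SD (n = 4). The Igha share is 13.4 to 30.5% in WT control skin and at most 8.64% elsewhere, while the Ighg share is highest on average in KO control skin, at 4.45%.

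Lambda light chains were scarce. Among the untested genes Iglc1 had 0, 1, 0 and 0 counts in KO UVB, 0, 0, 0 and 1 in KO control, 4, 0, 8 and 1 in WT UVB and 36, 16, 3 and 16 in WT control libraries. Lambda made up 13.8 ± 3.88% of light-chain constant counts in KO UVB, 3.24 ± 5.41% in KO control, 15.8 ± 16.2% in WT UVB and 8.62 ± 5.11% in WT control skin (SD, n = 4 each). No comparison of this share passed, with exact permutation adjusted p-values of 0.229 to 1.0 over 4 comparisons, on as few as 6 light-chain counts in a library.

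Reads over variable segments, the parts that are joined by rearrangement in each B cell clone, were counted as a further readout. Of 348 segment genes 170 had reads, 1576 in all. The number of segments with at least 3 counts was 0, 3, 0 and 2 in KO UVB libraries, 1, 6, 9 and 7 in KO control libraries, 8, 3, 2 and 6 in WT UVB libraries and 35, 17, 26 and 39 in WT control libraries. WT control skin had 164 to 367 segment counts per library, against 12 to 32 in KO UVB, 8 to 87 in KO control and 21 to 77 in WT UVB skin, and more counts let more segments be seen. The mean number differed by -24.5 segments for UVB in WT skin and by -23.5 for KO against WT skin without UVB, each with groups that did not overlap (exact permutation p = 0.0286, adjusted p = 0.0571). Neither passed after adjustment over 4 comparisons.

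The leading segment by summed counts was Igkv1-110 among kappa segments, with 36, 4, 8 and 59 counts in WT control libraries 1 to 4 and at most 7 in any other library. Ighv1-64 led the heavy-chain segments with 28 counts over 16 libraries, and Iglv1 the lambda segments with 84. In WT control library 4 Igkv1-110 took 16.1% of all segment counts, and in library 2 another kappa segment, Igkv15-103, led with 17.1%. Igkv1-110 led in WT control library 1 too, and Igkv1-117 in library 3 with 25 counts. Segments of a family resemble one another, and a rearranged segment can differ from the reference, so these counts can miss segments in use.

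Among B cell lineage genes 3 were called after UVB in each genotype, and 0 between the genotypes in edgeR. In a list of 20 drawn up with earlier results known, 12 were tested. In WT skin UVB gave 2 higher and 1 lower, beside 10.2% and 8.6% of all genes, and in KO skin also 2 higher and 1 lower, beside 17.2% and 15.1%. Ly6d, a surface protein that keratinocytes make as well, rose in WT skin after UVB (0.84 ± 0.18, adjusted p = 0.00501) and in KO skin (0.96 ± 0.18, adjusted p = 0.00129). Blnk, an adaptor of the B cell receptor, rose by 0.29 ± 0.09 in WT skin (adjusted p = 0.0403, up to 0.164 over the alternatives, and lost without any of WT control libraries 2, 3 and 4 or WT UVB libraries 2, 3 and 4) and by 0.44 ± 0.09 in KO skin (adjusted p = 0.00244). Blk, a kinase of B cells that some gamma-delta T cells also express, fell in WT skin to 0.678 ± 0.514 CPM after UVB, against 2.06 ± 0.281 CPM in control skin (-1.63 ± 0.41, adjusted p = 0.0124). The gene lower in KO skin, named after its values were seen, was Ebf1, a B lineage factor that fat and stromal cells also make (-0.51 ± 0.16, adjusted p = 0.0228, lost without KO control library 2 or 3 or KO UVB library 1 or 3).

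The B cell markers Ms4a1 and Pax5 were at or near 0 in all groups. Ms4a1, which encodes CD20, had 0 to 5 counts per library and Pax5, the B cell identity factor, 0 to 9, and neither entered the test. Ighm had 933 to 2993 counts in the same libraries. KO against WT skin gave 0 calls in this list, without UVB and after it, in edgeR, beside 1.69% and 0.856% of all genes. At an unadjusted p under 0.05 there was 1 gene without UVB and 3 after it, and DESeq2 called 0 and 2 in those comparisons, limma voom 1 and 1. The share of all genes at the unadjusted threshold was not counted, so the 1 and 3 cannot be set against it.

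Genes of the plasma cell programme, transcription factors and secretory machinery, were called in both directions after UVB. Of 18 listed, 17 were tested. UVB gave 3 higher and 2 lower in WT skin, beside 10.2% and 8.6% of all genes, and 6 higher and 1 lower in KO skin, beside 17.2% and 15.1%. Ell2, an elongation factor that favours the secreted form of antibody mRNA, rose in WT skin (0.56 ± 0.11, adjusted p = 0.00362) and in KO skin (0.78 ± 0.11, adjusted p = 0.000228). Sec11c, a signal peptidase subunit, rose in WT skin (0.29 ± 0.08, adjusted p = 0.0217, lost without WT control library 1 and with library totals, up to 0.0839 over the alternatives) and in KO skin (0.50 ± 0.08, adjusted p = 0.000422), and Creld2, a chaperone of the endoplasmic reticulum, in KO skin (0.67 ± 0.11, adjusted p = 0.000427). Many of these genes, Sec11c and Creld2 among them, are used by secretory cells of every kind and by keratinocytes.

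Prdm1, the repressor that drives plasma cell formation and that epidermis also expresses, was picked out after its values were seen. It rose in WT skin after UVB, at 58.6 ± 3.81 CPM against 36.9 ± 4.89 CPM in control skin (SD, n = 4 each), by 0.67 ± 0.15 on the log2 scale (adjusted p = 0.00523), while Igha, Igkc and Jchain fell. The 2 genes of the list that fell in WT skin, also named after their values were seen, were Slamf7, a surface receptor of plasma and NK cells (-1.36 ± 0.32, adjusted p = 0.00830), and Cd38, an ectoenzyme of plasma cells and other leukocytes (-0.92 ± 0.22, adjusted p = 0.0104). Tnfrsf17, the survival receptor BCMA of plasma cells, likewise picked out later, averaged 1.99 ± 1.06 CPM in KO UVB, 1.69 ± 0.386 in KO control, 1.24 ± 0.315 in WT UVB and 1.70 ± 0.805 in WT control skin. KO against WT skin gave 0 calls of 17 without UVB and 0 after it in edgeR, beside 1.69% and 0.856% of all genes. At an unadjusted p under 0.05 there were 2 and 10 genes, and DESeq2 called 0 and 2, limma voom 0 and 1. The share of all genes at that unadjusted threshold was not counted, so the 2 and 10 cannot be set against it.

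Signals that guide or sustain B and plasma cells fell in part after UVB in WT skin. Of 19 listed, 16 were tested and 5 were called lower in WT skin, beside 8.6% of all genes, with 0 higher. In KO skin 2 rose, beside 17.2% of all genes, and 2 fell, beside 15.1%. Il6, a cytokine that sustains plasma cells, had 10, 15, 155 and 12 counts in KO UVB libraries and 7, 5, 3 and 3 in KO control libraries (3.33 ± 0.83, adjusted p = 0.00678). Without KO UVB library 3 its fold was 2.80 in place of about 10 (log2 fold change 1.49, adjusted p = 0.0213), and DESeq2 gave it no adjusted p. No control library had more than 7 counts, so Il6 passed the filter through UVB libraries, where it was high. With the KO UVB and KO control groups compared alone it had no value. The other gene that rose was Ccr7 (1.049 ± 0.37, adjusted p = 0.0397, lost without any of 5 libraries), and both were named after their values were seen. Cxcl13, the chemokine that draws B cells into follicles, was at 5.17, 1.04, 2.23 and 1.28 CPM in WT UVB libraries and at 22.4, 40.0, 9.40 and 69.6 CPM in WT control libraries. The groups did not overlap, and the log2 fold change was -3.84 ± 0.67 (adjusted p = 0.00124). In KO skin Cxcl13 had 2.94, 9.64, 3.05 and 5.46 CPM after UVB and 6.51, 6.91, 10.9 and 2.38 CPM in control libraries, which overlapped (adjusted p = 0.697). The interaction was 3.49 ± 0.90 and did not pass in edgeR (adjusted p = 0.167) or limma voom (0.0939), while DESeq2 called it (3.52, adjusted p = 0.0272).

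Pigr, the receptor that carries J chain-linked IgA and IgM across epithelia, fell after UVB in both genotypes. With at most 10 counts in a UVB library, Pigr passed the filter, scaled to depth, through control libraries, where it was high. Its UVB tests are therefore given as a description. It had 0, 1, 1 and 2 counts in KO UVB libraries and 10, 44, 32 and 27 in KO control libraries (-4.66 ± 0.61, adjusted p = 8.97e-05). WT UVB libraries had 10, 5, 9 and 2 counts and WT control libraries 24, 16, 15 and 28 (-1.63 ± 0.46, adjusted p = 0.0225), a call lost when either of WT control libraries 1 and 4 or of WT UVB libraries 2 and 4 was left out (adjusted p up to 0.0679). Ccl27a, a skin chemokine that binds Ccr10, fell in KO skin (-1.03 ± 0.23, adjusted p = 0.00403).

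Ccr10, the receptor that homes IgA plasma cells and skin T cells to epithelia, was outside the naming rule and picked out later. It had 7, 1, 9 and 3 counts in WT UVB libraries and 27, 17, 24 and 36 in WT control libraries (-2.30 ± 0.62, adjusted p = 0.0176), a call that ended without WT UVB library 2 or 4. The last 2 genes lower in WT skin were Cxcl12 (-0.41 ± 0.11, adjusted p = 0.0183) and Ccl21a (-0.56 ± 0.19, adjusted p = 0.0470), also named after their values were seen. The Cxcl12 call ended without WT control library 1 or WT UVB library 2 or 3 (adjusted p up to 0.0749), and the Ccl21a call without any 1 of the 8 libraries (up to 0.102). KO against WT skin gave 0 calls of 16 without UVB and 0 after it in edgeR, beside 1.69% and 0.856% of all genes. At an unadjusted p under 0.05 there were 1 gene, Cxcl13, and 6 genes, and DESeq2 called 1 and 2, limma voom 0 and 3. The 1 and 6 cannot be set against all genes, whose share at that threshold was not counted.

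**Figure D4:**
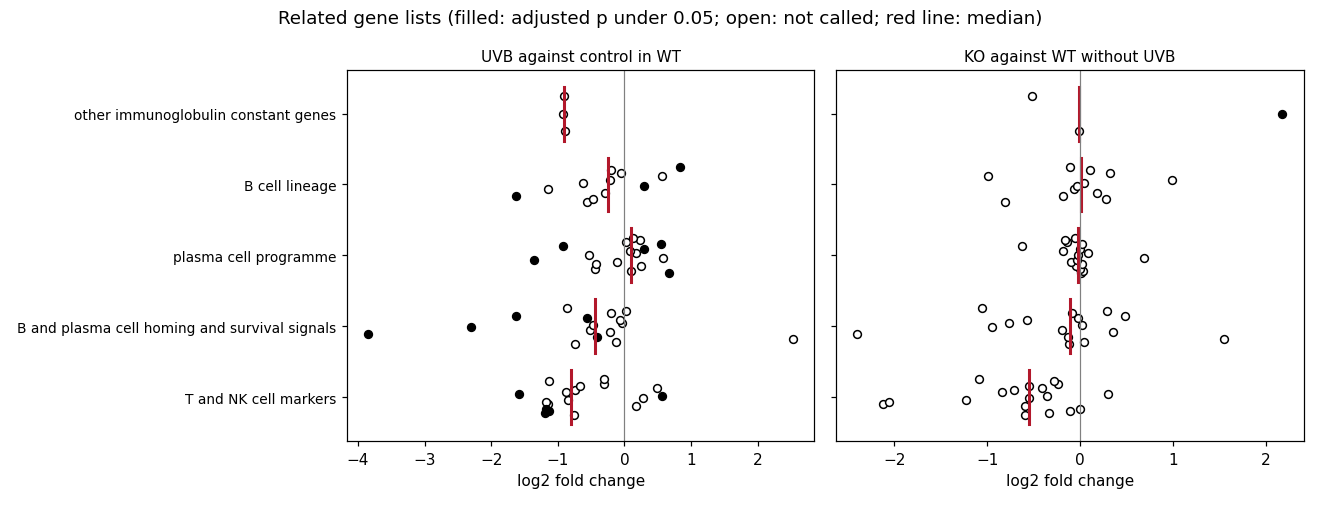
Log2 fold changes of the tested genes of 5 related lists for UVB against control in WT (left) and KO against WT without UVB (right), with a red line at each list's median and filled points at an adjusted p under 0.05. In the right panel Ighg1 is the only filled point, at 2.18, and in the left panel Cxcl13 lies lowest, at -3.84.

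Markers of other cells differed between the same groups as the antibody genes. The 17 tested genes of the anagen, or growing, follicle were all called lower after UVB in WT skin, beside 8.6% of all genes, and in KO skin, beside 15.1%, and 13 of 17 in KO against WT skin without UVB, beside 1.28%. Their summed level was 16.2 to 29.0 CPM in KO UVB, 94.9 to 330 CPM in KO control, 24.2 to 194 CPM in WT UVB and 1231 to 3117 CPM in WT control skin. WT control skin, labelled telogen like the rest, was thus highest in these markers as in Igha, Igkc and Jchain. In WT UVB skin library 2 had the highest follicle sum of its group, 194 CPM, with 2.47 CPM of Igha, and library 1 the lowest sum, 24.2 CPM, with 7.71 CPM of Igha. In WT control skin library 2 was highest, at 3117 CPM with 16.2 CPM of Igha, and library 3 lowest, at 1231 CPM with 14.0. In KO control skin library 2 was highest, at 330 CPM with 4.15 CPM of Igha, and library 4 lowest, at 94.9 CPM with 4.05. In KO UVB skin library 3 was highest, at 29.0 CPM with 1.29 CPM of Igha, and library 4 lowest, at 16.2 CPM with 1.55. Erythrocyte markers summed to 71.7 to 167 CPM in KO UVB, 88.7 to 118 in KO control, 58.3 to 159 in WT UVB and 122 to 245 in WT control skin, without overlap between KO control and WT control. Of 6 tested, UVB in WT skin lowered 2, beside 8.6% of all genes. They were Slc4a1 and Hba-a2, a globin gene with a near-identical copy whose counts are uncertain. In KO against WT skin without UVB 1 fell, beside 1.28% of all genes. It was Slc4a1, the erythrocyte anion exchanger (-2.88 ± 0.59, adjusted p = 0.0183), a call lost without any of 5 libraries (up to 0.0669). The part of follicle stage and of blood in the antibody results was not tested.

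**Figure D5:**
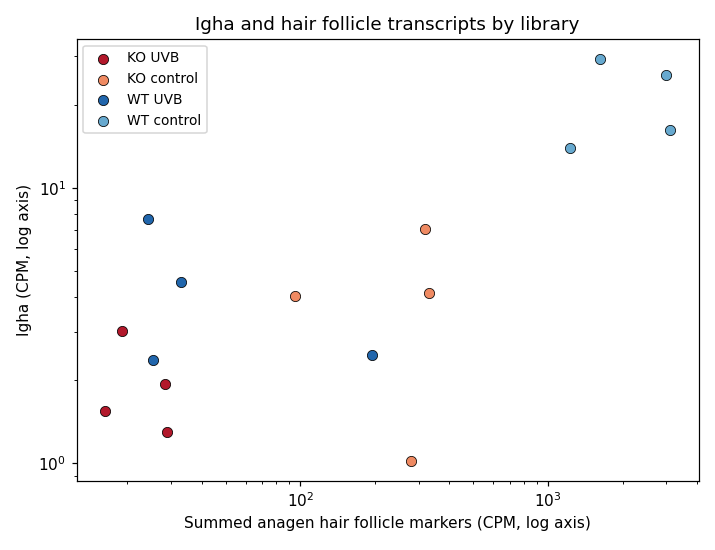
Igha level against the summed level of anagen hair follicle markers, both in CPM on log axes, with 1 point per library coloured by group. WT control libraries lie at the top right, from 1231 CPM of follicle markers up, and the other 12 libraries at 330 CPM or less with Igha at 7.71 CPM or less.

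Leukocyte markers differed by cell type. Neutrophil markers summed to 44.1 to 414 CPM in KO UVB, 29.8 to 51.7 in KO control, 23.8 to 54.5 in WT UVB and 26.8 to 35.7 in WT control skin. The KO UVB sums averaged 146 ± 179 CPM (SD, n = 4), with the 1 library at 414 CPM making up most of their total. Of 8 tested, 7 were called higher after UVB in KO skin, beside 17.2% of all genes. In WT skin 2 were higher and 1 lower, beside 10.2% and 8.6%. T and NK cell markers summed to 79.2 to 149 CPM in KO UVB and 94.6 to 126 in KO control skin. They summed to 89.5 to 151 CPM in WT UVB and 127 to 196 in WT control skin. KO control and WT control skin did not overlap in this sum. Of the 18 tested, UVB gave 1 higher and 4 lower in WT skin, beside 10.2% and 8.6% of all genes. In KO skin 4 were higher and 4 lower, beside 17.2% and 15.1%. Trdc, the delta chain of gamma-delta T cell receptors, fell in WT skin (-1.59 ± 0.20, adjusted p = 8.05e-05) and in KO skin (-1.83 ± 0.20, adjusted p = 2.72e-05). Trbc2, a beta chain gene of T cell receptors named after its values were seen, had higher means after UVB. It was at 25.7 against 17.4 CPM in WT skin and 24.1 against 13.5 CPM in KO skin. Langerhans and dendritic cell markers summed to 1135 to 5067 CPM in KO UVB, 2361 to 3656 in KO control, 2229 to 3658 in WT UVB and 3664 to 5183 in WT control skin. In this sum every WT control library lay above every KO control and WT UVB library, while KO UVB skin overlapped with WT control skin. Macrophage marker sums overlapped in all 4 groups, at 1886 to 4884 CPM. The part of these cells in the antibody results was not tested.

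The genes most like the members over the 16 libraries were found by Pearson r with the mean standardised log2 CPM of the 6 tested genes, as a description. Camk2n1, an inhibitor of calmodulin kinase, led with r = 0.94, or 0.81 on deviations from group means. Pgm2l1 (0.93), Kcnip3 (0.93), Adamtsl4 (0.92), Rasgrp2 (0.92), Smad7 (0.91), Wnt5a (0.91), Ctns (0.90), Crebrf (0.90) and Zap70 (0.90) followed. The 16 libraries share 4 groups, so these r are not over independent points. Among the members themselves r with that mean was 0.91 for Igkc, 0.86 for Jchain and for Igha, 0.75 for Mzb1, 0.72 for Cd79b and 0.47 for Ighm. Each member is part of the mean it is set against, so a positive r is partly built in.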

How the data were processed

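RNA of whole dorsal skin was read from 16 libraries. Per the labels' protocols, it was extracted with Trizol, poly(A)-enriched and made into directional libraries. STAR and the build GRCm39 are named in the submitters' processing notes, and its version and annotation are not given there. The files the authors deposited hold raw read counts per gene and strand. The reverse-strand counts were used, 95.7% of stranded reads. Summed lines for unmapped (10.7 to 19.5%), no-feature (7.25 to 10.2%) and ambiguous reads (1.18 to 1.42%) stayed out of tests. A combined table with 17 value columns was not used. Symbols, from an annotation of another build, matched 52083 IDs, leaving 1.23% of reads unnamed.

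Counts were fitted with edgeR 4.0.16 in R 4.3.3 (robust quasi-likelihood, TMM, filterByExpr with a minimum count of 10) as 1 model of 4 groups with 5 contrasts, and p-values were Benjamini-Hochberg adjusted over 17531 genes, called under 0.05. CPM are TMM-normalised, log2 CPM have a prior count of 2, and the SE is that implied by the test. Counts of genes at an unadjusted p under 0.05 are given without the share of all genes, which was not counted. Shares of counts were compared by 2-sided exact permutation (scipy 1.17.1). The fit was tested on simulated data. Alternatives used DESeq2 1.42.0, limma 3.58.1, other scalings, no filter, unstranded counts, 2 groups alone, a replicate block and each library left out.

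The members, the gene lists and the tests were chosen with earlier results of these data known. The naming rule took all members, the 3 tested other constant genes, up to 3 called genes per list, the leading segments and the 10 most similar genes, of which the text names part. Nothing in the labels says that libraries of a group came from separate mice, and each p-value then reflects only how far these samples spread, which may be technical. No library was a repeat of another (chi-square over degrees of freedom 14.9 to 158 in 24 within-group pairs). 1 gene of the B cell lineage list is not reported here by name.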

Additional observations from a re-analysis of the deposited data

Results flagged for a closer look

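The lambda share of light-chain constant-region counts stood apart in 1 library of KO control skin, library 4, at 11.3% (Wilson 95% interval 5.82 to 20.7%), on 8 of 71 light-chain counts. The other 3 had 0 of 6, 1 of 59 and 0 of 67 counts, and the counts of 0 allow shares of up to 50% and 4.48% at 3 counts of the total (Wilson upper bounds 39.0% and 5.42%). The same share stood apart in WT UVB library 3, at 40.0% (interval 21.9 to 61.3%), on 8 of 20 counts. The gap to the next library took 0.850 and 0.879 of the group's range, past Dixon's 95% critical value. Chance gives such a gap in about 1 of 20 groups of 4, and 40 groups were examined.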

How the results depend on the processing

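Of 231 values of the 6 tested genes under alternatives that kept all libraries, 221 kept direction and side of the threshold. In UVB against control in KO skin, limma voom and library totals each called 1 gene, Mzb1, in place of 0, and leaving out 1 library gave 0 to 3. In KO against WT without UVB, 0 were called with no filter beyond 1 read, where more genes were tested, and leaving out 1 library gave 0 to 3 in place of 3. Same-numbered libraries did not deviate together (r -0.40 to 0.22, 2 of 16 pairs over 0.1). With the replicate block 1 gene, Jchain, stayed called there (Igha adjusted p = 0.0565, Igkc 0.0714), and Cd79b was not called for UVB in WT (adjusted p = 0.0598). With the replicate block the exact test of the Igha share, by sign exchange over 4 pairs, cannot go below 0.125, so its differences of -14.0, -16.1 and -3.42 points had an adjusted p of 0.167. Leaving out 1 library gave -16.2 to -10.5 points for UVB in WT, -18.4 to -12.7 for KO against WT without UVB and -4.04 to -2.56 after UVB, all at an adjusted p of 0.0762.

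Directions changed in values that were not called. The Ighm interaction was -0.069 under limma voom, against 0.30. Leaving out 1 library gave -0.025 to 0.48 for the Ighm interaction, -0.47 to 0.026 for Ighm and -0.50 to 0.046 for Cd79b with UVB in KO, and for Mzb1 -0.44 to 0.064 (KO against WT without UVB), -0.58 to 0.13 (after UVB) and -0.38 to 0.33 (interaction). For the lambda share it gave -0.911 to 10.6 points (UVB in WT) and -5.35 to 6.14 points (KO against WT after UVB). The causes were not tested. Genes with few counts, Mzb1 and Cd79a among them, are limited by depth. Counts of all genes called moved more. Over the alternatives they ran from 2039 to 5100 for UVB in WT (3290 as reported), 3506 to 7508 for UVB in KO (5666), 161 to 590 for KO against WT without UVB (297), 59 to 1094 after UVB (150) and 2 to 438 for the interaction (4), each highest in limma voom. Without KO UVB library 4 the interaction gave 110 and KO against WT after UVB 487.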

Other observations

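The other constant genes too low for the test differed in where their reads lay. Iglc2 had 0 counts in total in KO UVB, 5 in KO control, 4 in WT UVB and 42 in WT control skin, and Ighg2c had 8, 20, 7 and 39. Iglc3 had 12, 3, 8 and 11 counts in the same order, Igll1 had 5, 9, 17 and 8, and Ighg3 had 0, 1, 1 and 8. Ighe, the IgE heavy chain, had 8 counts in total in KO UVB, 1 in KO control, 2 in WT UVB and 0 in WT control skin, and Iglc4 had 0 in every library. Derl3, an endoplasmic reticulum gene of plasma cells, had 27, 24, 24 and 52 counts in total in the same order. With no filter beyond 1 read, Iglc1 was called lower in KO than in WT skin without UVB (adjusted p = 0.00982 in edgeR), on 1 count in total in KO control against 71 in WT control skin.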
